A study of Canis lupus familiaris with 36 samples.

Results

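The 10 genes described here make or organise the connective tissue of a tumour. They are COL1A1, COL1A2, COL3A1, SPARC, DCN, LUM, FN1, ACTA2, COL4A1 and TIMP3, chosen by symbol, and all 10 were found among the 15115 genes on the canine array. They are covered by 29 probe sets. For each gene the brightest of its probe sets, by the average of all 36 arrays, gave the level.

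Lymph node stroma is built by fibroblastic cells, which secrete fibrillar collagens, coat the fibres with small proteoglycans and guide lymphocytes along them. Vessels add a basement membrane of type IV collagen, and pericytes, smooth muscle and activated fibroblasts carry the contractile actin ACTA2. In lymphoma this scaffold can be kept, lost or replaced by scar-like matrix. Lymphocytes themselves make little of it, although macrophages and some T cells can transcribe FN1.

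Gene expression was measured in primary lymphoma tissue from 35 pet dogs, 15 males and 20 females, of which 24 were Golden Retrievers. The B phenotype held 17 dogs. Of these, 10 had high-grade diffuse large B-cell lymphoma (DLBCL; 4 males and 6 females, 6 Golden Retrievers, age at diagnosis 4 to 14), 5 had low-grade marginal zone lymphoma (MZL; 1 male and 4 females, 4 Golden Retrievers, age 4 to 10) and 2 carried the high-grade label BL (1 male and 1 female, 1 Golden Retriever, age 2 and 5). The T phenotype also held 17 dogs. Of these, 4 carried the high-grade label LBT (1 male and 3 females, 3 Golden Retrievers, age 3 to 10), 4 had peripheral T-cell lymphoma (PTCL; 2 males and 2 females, 1 Golden Retriever, age 6 to 14; 3 of high and 1 of intermediate grade) and 9 had low-grade T-zone lymphoma (TZL; 6 males and 3 females, 8 Golden Retrievers, age 7 to 11). A single low-grade dog labelled NBNT, neither B nor T, is shown but entered no test. The labels give ages without a unit and name no treatment, and no normal node was among the samples. Every group was a tumour that had been dissociated mechanically and filtered before RNA extraction, so the levels are those of what passed the filter, and how much matrix-bound tissue was lost was not measured. In such whole-tumour RNA, fewer cells of a type and less RNA per cell cannot be told apart.

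Levels are log2 intensities. A log2 value of 4, an intensity of 16, was taken as the minimum for a level to be read, which 32.2% to 35.5% of the probe sets on an array did. The number of arrays limits the precision. All 5 B-cell markers tested were higher in B and all 6 T-cell markers tested were higher in T (limma, adjusted p under 0.05), as the phenotype labels have it. The arrays of 6 dogs stood apart by a bright 3' actin control, 3 of them TZL (replicates 1, 2 and 7), 2 of them DLBCL (replicates 4 and 9) and 1 of them PTCL (replicate 3). The stromal label was checked against marker lists. Of 14 fibroblast markers the defining receptors PDGFRA and PDGFRB, PDPN and FAP were below the minimum in all 35 dogs, with highest values of 2.84, 2.94, 3.48 and 3.22, and TCF21, C7 and GREM1 reached it in 0 dogs too. Of the rest THY1 reached it in 31 dogs, PRRX1 in 27, the chemokines CCL19 and CCL21 in 14 and 13, CXCL12 in 10, and DPT and MFAP5 in 2 each. The genes are therefore described by name and not as a measure of a cell type.

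Most tumours had little of these transcripts and a few had a great deal. In 12 of the 35 dogs none of the 10 genes reached the minimum, in 6 dogs 1 did and in 6 dogs 2 did, while 7 or 8 genes did so in 5 dogs. The number of dogs at or above the minimum was 16 for COL1A1, 17 for COL1A2, 10 for COL3A1, 9 for SPARC, 9 for FN1, 6 for ACTA2, 5 for COL4A1, 4 for LUM, 3 for DCN and 0 for TIMP3. The heat map by dog shows that the high values were gathered in the same few columns and not in 1 subtype.

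**Figure D1:**
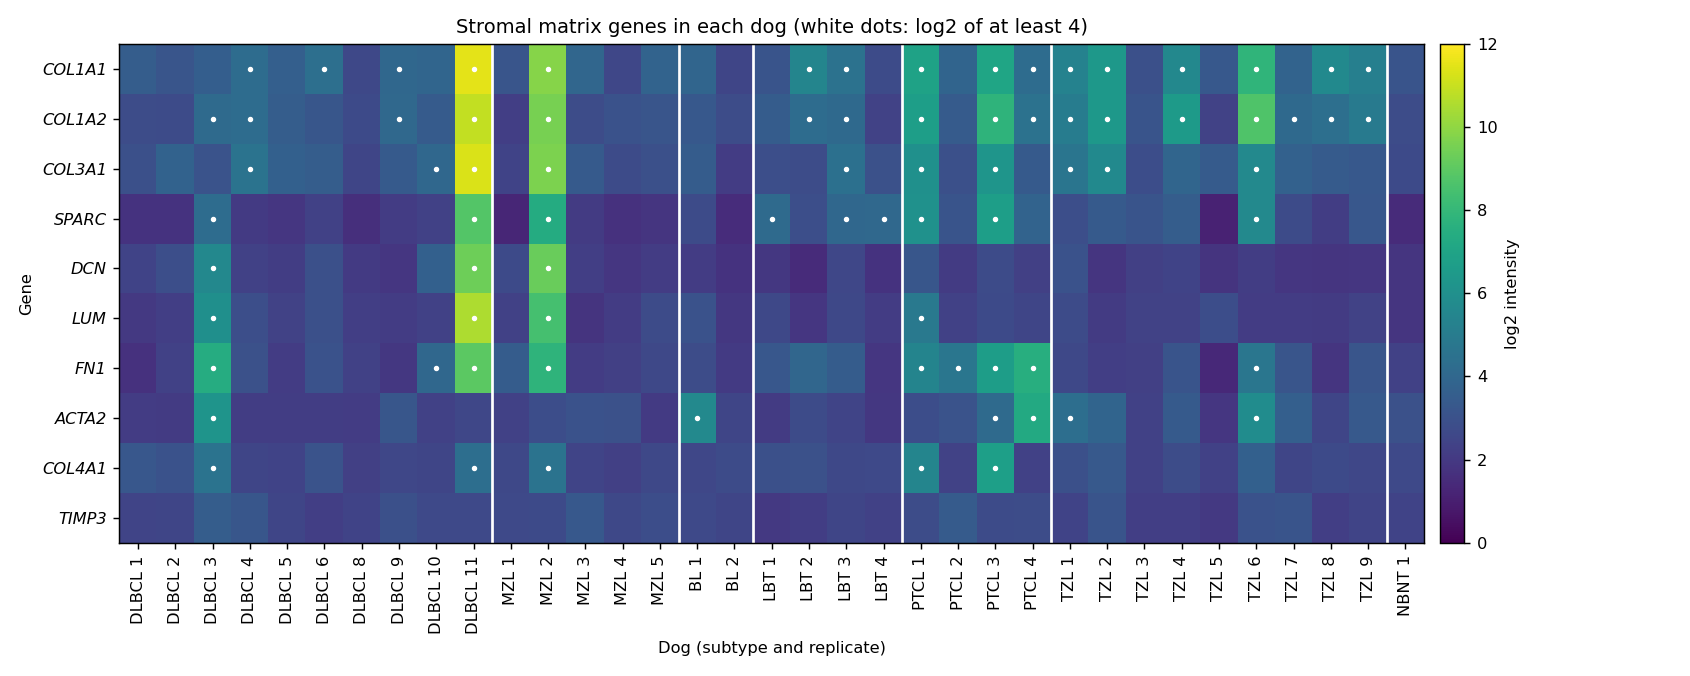
Log2 intensity of the 10 stromal matrix genes (rows) in each of 35 dogs (columns, by subtype and replicate number, white lines between subtypes), with colour from 0 to 12 and a white dot where the value is at least 4. DLBCL replicate 11 and MZL replicate 2 hold 8 dots each, and TIMP3 holds 0.

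The type I and type III collagens, which form the load-bearing fibres, had the widest range. COL1A1 lay at 2.62, 3.79 and 11.5 (lowest, median and highest) in the 10 DLBCL dogs and at 2.92, 5.31 and 7.87 in the 9 TZL dogs. The 5 MZL dogs read 3.17, 9.83, 3.94, 2.56 and 3.83 for COL1A1, and the 2 BL dogs read 3.90 and 2.50. The 4 LBT dogs read 3.10, 5.45, 4.52 and 2.75 for COL1A1, the 4 PTCL dogs 6.92, 3.87, 7.04 and 4.24, and the NBNT dog 3.13. The 2 highest COL1A1 values of the series were thus a DLBCL and an MZL dog, whose groups otherwise lay at or below 4.38 and 3.94, and the next were T-phenotype dogs. As intensities, the highest COL1A1 value was 2956, 185-fold above the minimum, under which the median dog lay.

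COL1A2, the partner chain of COL1A1, followed the same order. It lay at 2.70, 3.48 and 10.9 in DLBCL and at 2.35, 4.95 and 8.71 in TZL (lowest, median and highest). The 4 PTCL dogs read 6.72, 3.43, 7.79 and 4.52, and the 5 MZL dogs 2.21, 9.53, 2.80, 3.04 and 3.15. COL1A2 reached the minimum in 12 of 17 T dogs and 5 of 17 B dogs, and COL1A1 did so in 11 and 5. COL3A1, the chain of reticular fibres, reached it in 6 T and 4 B dogs and was highest in DLBCL replicate 11 at 11.3, MZL replicate 2 at 9.62 and PTCL replicate 3 at 6.27. All subtypes with more than 2 dogs overlapped in all 3 of these genes.

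SPARC, a collagen-binding glycoprotein of remodelled matrix, lay at 1.64, 2.09 and 8.77 in DLBCL and at 1.14, 3.11 and 5.67 in TZL. The 4 PTCL dogs read 6.09, 3.10, 6.74 and 3.80, and the 4 LBT dogs 4.17, 2.86, 4.00 and 4.05. The 5 MZL dogs read 1.30, 7.37, 2.09, 1.73 and 1.87. In LBT 3 of 4 dogs lay just at the minimum, a narrower band than in the other subtypes of more than 2 dogs.

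FN1, the fibronectin that links cells to collagen, reached the minimum in every PTCL dog. The 4 PTCL dogs read 5.42, 4.69, 6.67 and 7.53. The 9 TZL dogs lay at 1.37, 2.61 and 4.69 (lowest, median and highest), with 1 above the minimum, and the 4 LBT dogs read 3.26, 3.97, 3.50 and 1.92, all below it. Among B dogs FN1 was high in DLBCL replicates 11 and 3, at 8.99 and 7.42, and in MZL replicate 2, at 7.81, against a DLBCL median of 2.66 and an MZL median of 2.58. The lowest PTCL dog and the highest TZL dog, TZL replicate 6, were level.

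DCN and LUM, small leucine-rich proteoglycans that bind and space collagen fibrils, were below the minimum in nearly all dogs but 3 of the B phenotype. DCN read 9.34 in DLBCL replicate 11, 9.25 in MZL replicate 2 and 5.59 in DLBCL replicate 3, and no T dog exceeded 3.23. LUM read 10.5, 8.48 and 5.98 in the same 3 dogs, and the only other dog above the minimum was PTCL replicate 1 at 4.84. The median dog lay at 2.17 for DCN and 2.35 for LUM. T dogs with collagen levels of 6 to 9, such as TZL replicate 6, had no readable DCN level.

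ACTA2, the contractile actin, read 7.31 in PTCL replicate 4, 6.22 in DLBCL replicate 3, 5.82 in TZL replicate 6 and 5.66 in BL replicate 1, then 4.35 in TZL replicate 1 and 4.13 in PTCL replicate 3. In the 2 dogs with the highest collagen levels it was below the minimum, at 2.55 in DLBCL replicate 11 and 2.85 in MZL replicate 2, whereas TZL replicate 6 was the third highest in ACTA2, COL1A1 and COL1A2. COL4A1, the basement membrane collagen of vessels, was highest in PTCL replicates 3 and 1, at 6.79 and 5.47, and read 4.58 in MZL replicate 2, 4.57 in DLBCL replicate 3 and 4.34 in DLBCL replicate 11. TIMP3, a matrix-bound inhibitor of metalloproteases, lay between 1.97 and 3.54 in all 35 dogs, below the minimum, and its order between dogs was not read.

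**Figure D2:**
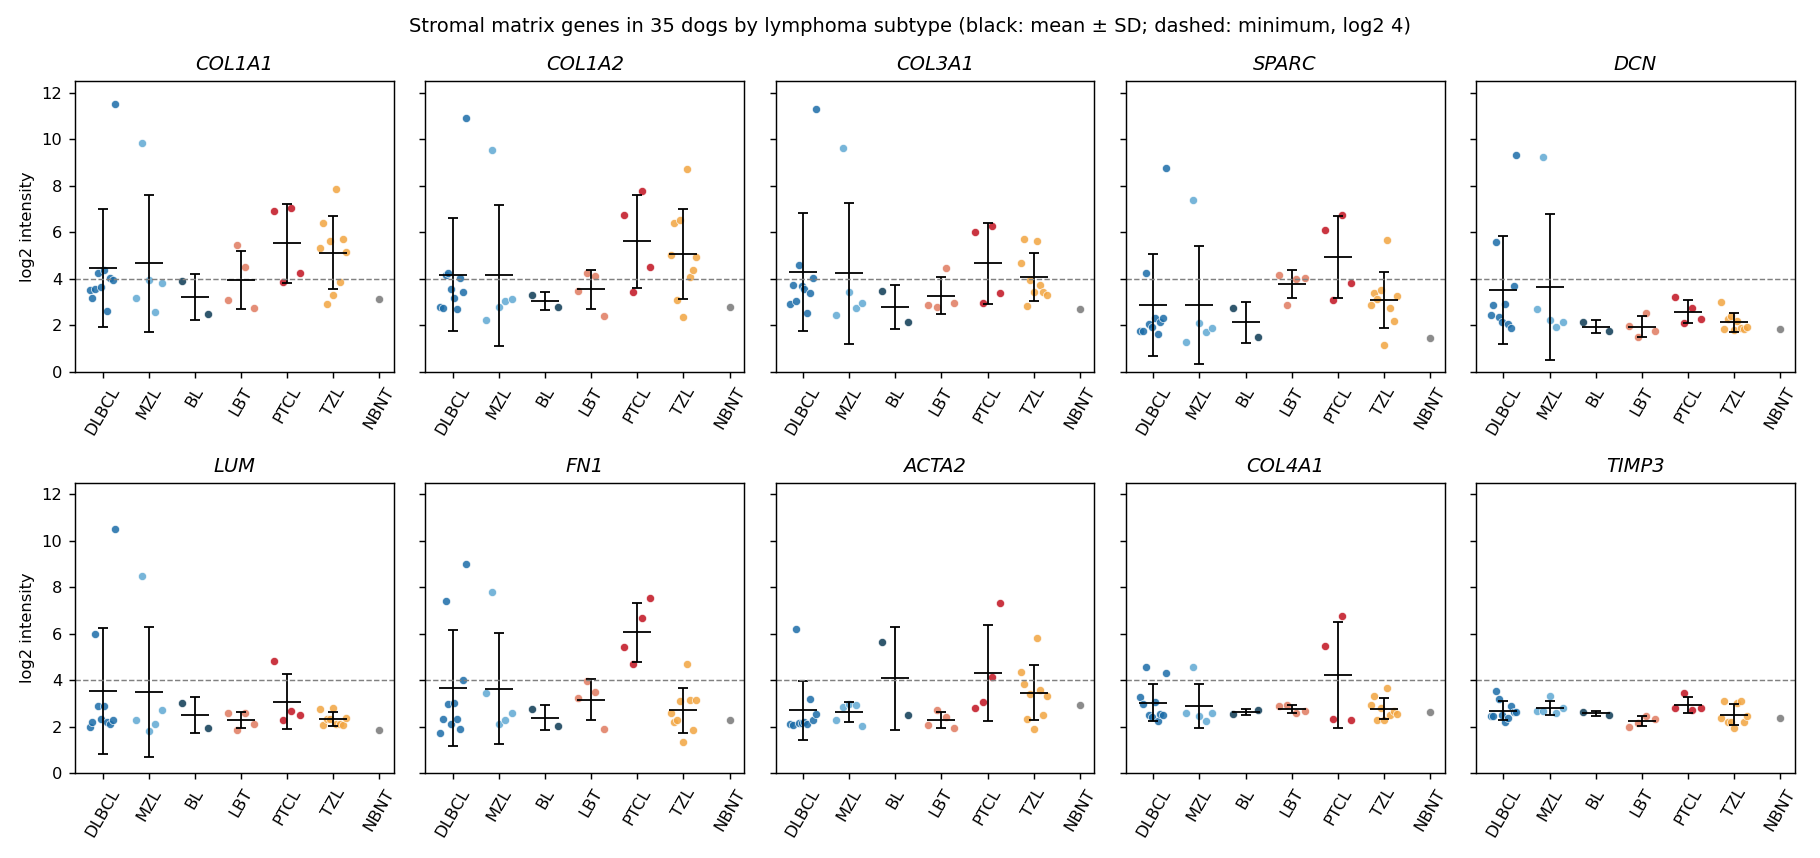
Log2 intensity (y axis) of each of the 10 genes by subtype (x axis), 1 point per dog, with the mean and SD in black for subtypes of 2 or more dogs and the minimum of 4 dashed. Single dogs stand far above the rest of DLBCL and MZL for the collagens, SPARC, DCN and LUM, and all 4 PTCL points lie above the dashed line for FN1.

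Whether the genes differ between the histologic subtypes was tested with limma over all 7500 genes that reached the minimum in at least 4 of the 34 dogs tested. Of the 10 stromal genes 8 met this filter, and DCN and TIMP3 did not. In the test of any difference between the 6 subtypes, 56.8% of the 7500 genes were called (adjusted p under 0.05) but 0 of the 8 stromal genes. The adjusted p (limma) ran from 0.104 for FN1 and 0.157 for ACTA2 over 0.253 for COL4A1, 0.413 for SPARC, 0.61 for COL1A2, 0.712 for LUM and 0.758 for COL1A1 to 0.851 for COL3A1. The spread within subtypes was large. The SD within subtypes was 2.12 for COL1A1, 2.19 for COL1A2, 2.03 for COL3A1, 1.92 for LUM, 1.83 for FN1 and 1.81 for SPARC, against a median of 0.573 over all genes tested, and 98.7% or more of the tested genes had a lower SD than each of these 6. ACTA2 at 1.26 and COL4A1 at 0.975 were lower, with 93.2% and 84.6% of genes below them. A p that misses the threshold at this spread does not show equal levels.

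PTCL was compared with TZL as the high-grade and the low-grade T-cell disease. FN1 was the only stromal gene called, 1 of 8, where 13.7% of all genes were called. Its mean was 6.08 ± 1.27 (SD, n = 4) in PTCL and 2.72 ± 0.964 (SD, n = 9) in TZL, a difference of 3.36 (SE 1.05; limma, adjusted p = 0.0304). Where readings under log2 4 count as 4 the difference was 4.0-fold and was not called (limma, adjusted p = 0.0734). COL4A1 differed by 1.44 (SE 0.565; limma, adjusted p = 0.0889) and SPARC by 1.83 (SE 1.04; limma, adjusted p = 0.263). ACTA2, LUM and the fibrillar collagens differed by 0.39 to 0.87, each with an adjusted p (limma) of 0.486 or more. The median difference over the 8 genes was 0.808, against 0.0261 over all genes.

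The FN1 call was narrow. It was lost without the 6 arrays that stand apart (difference 3.13; limma, adjusted p = 0.157), and without PTCL replicate 3, PTCL replicate 4 or TZL replicate 5 (adjusted p = 0.0905, 0.1 and 0.0519 by limma). PTCL replicate 3 is itself 1 of those 6 arrays. With the 6 kept and their set as a block, the difference was 3.32 (limma, adjusted p = 0.0314). With sex, breed and age as covariates it was 3.16 and was not called (limma, adjusted p = 0.0666). The call rests on 1 probe set, as given further on. Without PTCL replicate 4, the dog of intermediate grade, COL4A1 passed in its place (difference 2.08; limma, adjusted p = 0.0141). Of 10 tested macrophage markers CD14 and CD68 were called, higher in PTCL by 2.38 and 1.98 (limma, adjusted p = 4.76e-05 and 0.0219), where 13.7% of all genes were called. With readings under log2 4 counted as 4 they were 2.93-fold and 3.19-fold higher. The mean of the 11 markers ran from 3.95 to 7.2 in PTCL and from 2.52 to 6.51 in TZL. Of 3 endothelial markers tested KDR was called, with a PTCL mean at least 1.87-fold higher (limma, adjusted p = 0.00872). It reached the minimum in 2 of 4 PTCL and 0 of 9 TZL dogs. KDR read 8.86 in PTCL replicate 2 and 4.39 in PTCL replicate 3, but 2.41 in PTCL replicate 1. The mean of the 14 endothelial markers ran from 2.98 to 3.2 in PTCL and from 2.32 to 2.74 in TZL. The part of the macrophage and endothelial markers in the FN1 difference was not tested.

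DLBCL and MZL, the high-grade and low-grade B-cell diseases, had mean differences within 0.20 of 0 in all 8 tested stromal genes, with SEs of 0.515 to 1.14 and adjusted p-values (limma) of 0.949 or more. Each group holds 1 of the 2 dogs with the highest collagen levels. Without DLBCL replicate 11 the difference was -0.99 for COL1A1, -0.72 for COL1A2 and -0.73 for COL3A1, and without MZL replicate 2 it was 1.09, 1.37 and 1.39, none of them called (limma, adjusted p from 0.561 to 0.83). Here 0% of all genes were called by limma, with 977 at an unadjusted p under 0.05, and other settings called up to 378 genes but 0 of the stromal ones. A test of whether the step from low to high grade differed between B and T called 0 of 8 stromal genes and 1.96% of all genes, with FN1 at -3.33 (SE 1.42; limma, adjusted p = 0.262).

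The remaining comparisons called 0 of the 8 stromal genes each. Between LBT and TZL 30.1% of all genes were called, between MZL and TZL 27.5%, and between LBT and PTCL 0.68%. FN1 was lower in every LBT dog than in every PTCL dog, by at least 4.22-fold on average with the LBT dogs placed at the minimum, but did not pass (limma, adjusted p = 0.306). For ACTA2 0 of 4 LBT dogs and 2 of 4 PTCL dogs reached the minimum (limma, adjusted p = 0.301). Between the B and T phenotypes 46.5% of all genes were called. The difference B minus T was -0.56 for COL1A1, -0.80 for COL1A2, -0.90 for SPARC and 0.90 for LUM, with adjusted p-values (limma) of 0.517, 0.366, 0.218 and 0.224. It was 0.06 for COL3A1, -0.08 for FN1, -0.54 for ACTA2 and -0.17 for COL4A1, with adjusted p-values (limma) of 0.945, 0.928, 0.325 and 0.705.

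**Figure D3:**
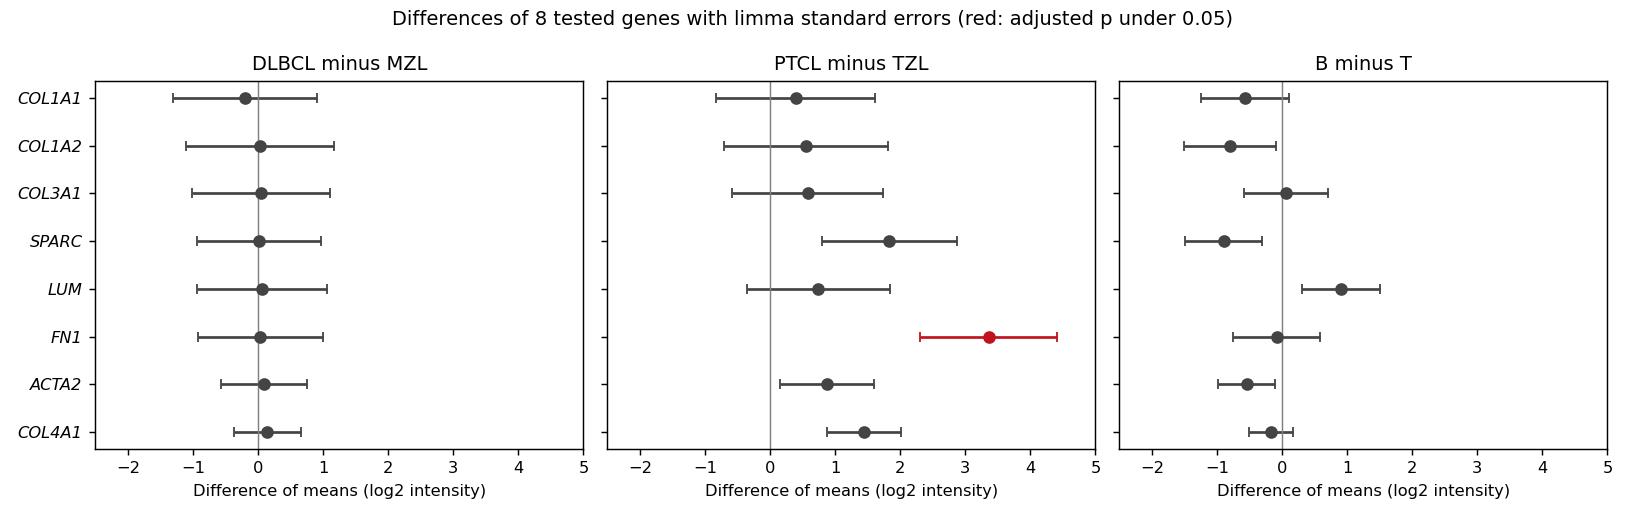
Difference of group means in log2 intensity (x axis, points) with limma's standard error (bars) for the 8 tested stromal genes (y axis) in DLBCL minus MZL, PTCL minus TZL and B minus T. FN1 in PTCL minus TZL, in red at 3.36, is the only difference with an adjusted p under 0.05, and the DLBCL minus MZL points lie near 0.

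These counts depended on 2 dogs, DLBCL replicate 11 and MZL replicate 2. Without both, a choice made after their levels were seen and by those levels, 6 stromal genes met the filter. Both dogs are of the B phenotype and were its highest, so leaving them out lowers the B means by construction, and the p-values that follow describe the remaining dogs and are no test of the phenotypes. Over the 6 subtypes 4 of the 6 were then called, SPARC, FN1, COL1A2 and COL1A1 (limma, adjusted p = 0.00214, 0.00465, 0.0205 and 0.0353), where 54.7% of all genes were. Between B and T 3 of 6 were called where 43.4% of all genes were, so both shares lay near the background. COL1A1 then averaged 3.54 ± 0.605 (SD, n = 15) in B and 4.94 ± 1.55 (SD, n = 17) in T, a difference of -1.40 (limma, adjusted p = 0.00646). COL1A2 differed by -1.63 and SPARC by -1.60 (limma, adjusted p = 0.00638 and 0.00121). SPARC was added between PTCL and TZL (limma, adjusted p = 0.0414), making 2 of 6 where 13% of all genes were called, and COL1A2 was called between MZL and TZL at -2.26 (limma, adjusted p = 0.0351), 1 of 6 where 22.6% were. Without DLBCL replicate 11 alone, SPARC passed between B and T (limma, adjusted p = 0.0323).

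Among single tumours, the rule for naming took the 3 dogs with the highest mean of the 8 tested genes, DLBCL replicate 11 at 8.61, MZL replicate 2 at 7.51 and PTCL replicate 3 at 6.02. Another 4 dogs were taken up after their values were seen, PTCL replicate 1 at 5.54, TZL replicate 6 at 5.53, DLBCL replicate 3 at 4.90 and PTCL replicate 4 at 4.45. DLBCL replicate 11 and MZL replicate 2 had the same 8 stromal genes at the minimum. The other dogs differed from them and from each other in which genes reached it. These are descriptions of single tumours, with no replicate, and the genes outside the 10 that are named with them were picked after their values were seen.

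DLBCL replicate 11 and MZL replicate 2 carried fibrillar collagens, SPARC, FN1 and both proteoglycans at once, without ACTA2. Beside them stood COL5A2 at 8.39 and 4.09, a minor fibrillar collagen, the microfibril gene MFAP5 at 7.23 and 5.12, EFEMP1 at 6.38 and 5.51 and the matricellular CCN2 at 5.12 and 5.24. Each of COL5A2, MFAP5 and EFEMP1 reached the minimum in no other dog, and P4HA2, which hydroxylates collagen chains, did so in these 2 alone, at 5.34 and 4.15. The 4 leukocyte markers averaged 11.5 and 11.6 in these dogs, ranks 32 and 30 of 35, against 10.1 to 12.3 in the 28 dogs not singled out. Of 2 red cell markers, ALAS2 reached the minimum in these dogs alone, at 4.3 and 5.0, and SLC4A1 did so in 0 dogs. The mean of both red cell markers, 2.95 and 3.19, ranked 2 and 1 of 35, above the 1.76 to 2.52 of those 28 dogs, and its part in the matrix levels was not tested. The 14 fibroblast markers, MFAP5 among them, averaged 3.53 and 3.28, ranks 11 and 14 of 35, within the 2.56 to 4.36 of those 28 dogs. Each was still the highest of its subtype, against medians of 2.7 in DLBCL and 2.81 in MZL, while TZL ran from 3.53 to 4.74. The fibroblast marker DPT read 5.11 and 3.41 in the 2 dogs. Of the 9 other collagens on the array, 2 reached the minimum in DLBCL replicate 11 and 1 in MZL replicate 2. The 14 endothelial markers averaged 2.52 and 2.71, within the 2.26 to 3.2 of those 28 dogs. The 11 smooth muscle and pericyte markers averaged 2.72 and 2.60, within their 2.21 to 3.38.

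DLBCL replicate 3 had FN1 at 7.42, ACTA2 at 6.22, LUM at 5.98 and DCN at 5.59, with COL4A1, SPARC and COL1A2 at 4.57, 4.24 and 4.17, while COL1A1 and COL3A1 were below the minimum at 3.58 and 3.05. The smooth muscle gene TAGLN read 6.5 in it, but only 2 of the 11 smooth muscle and pericyte markers reached the minimum. Their mean, 3.325, lay within the 2.21 to 3.38 of the 28 dogs not singled out. The mean of 5 epithelial markers was also the highest of all dogs here, 6.44 against 2.31 to 5.49 in the 28 dogs not singled out. KRT8 read 8.53 and reached the minimum in no other dog. EPCAM read 8.91 and KRT18 9.69, but they reached the minimum in 15 and 22 dogs, and EPCAM was higher in LBT replicate 3, at 10.8. KRT10 and CDH1 were below the minimum in DLBCL replicate 3, at 2.65 and 2.39. The part of the epithelial markers in the FN1, ACTA2 and proteoglycan levels of this dog was not tested.

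PTCL replicates 1 and 3 carried the collagens and SPARC together with COL4A1, but DCN at only 3.23 and 2.76. COL4A2, the partner chain of COL4A1, read 5.27 and 5.74 in them. The mean of the 14 endothelial markers was 3.12 and 3.08, ranks 2 and 3 of 35, with only 2 and 3 of the 14 at the minimum. That mean ran from 2.98 to 3.2 over all 4 PTCL dogs, although COL4A1 was 2.35 and 2.32 in PTCL replicates 2 and 4. TZL replicate 6 also had COL1A2 at 8.71, COL1A1 at 7.87 and SPARC at 5.67, with ACTA2 at 5.82 and without DCN, LUM or COL4A1. It had the highest mean of the 14 fibroblast markers, 4.74, with 5 of them at the minimum, among them CCL19 at 11.8, CCL21 at 11.5 and CXCL12 at 7.83. CCL19 and CCL21 reached the minimum in all 9 TZL dogs, with means of 8.79 and 8.64. The mean of the 14 ran from 3.53 to 4.74 over TZL. TZL replicate 6 also had the highest mean of smooth muscle and pericyte markers, 3.58, with 3 of 11 at the minimum and TAGLN at 6.79. Its LAMA4, 7.26, was the highest too. PTCL replicate 4 paired FN1 at 7.53 with ACTA2 at 7.31, with COL1A1 at 4.24. Its 11 macrophage markers averaged 7.20, the highest of all dogs, with CD163 at 7.69 and MRC1 at 7.88. The part of these other cell types in the levels was not tested.

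How closely the genes varied together over the 35 dogs was measured for all 45 pairs. The genes were chosen with these data known and as genes of 1 tissue compartment, so the pairs are no independent support for each other. COL1A1 and COL1A2 correlated at r = 0.96 and Spearman's rho = 0.878 (permutation p = 1e-05 for both, the smallest value possible with this many permutations; after adjustment over the 45 pairs, 4.5e-05 and 0.00011). Without the 2 dogs farthest from the median of COL1A1, again DLBCL replicate 11 and MZL replicate 2, r was 0.925. It was 0.976 within B and 0.935 within T, but 0.548 in the 15 B dogs without those 2. COL1A1 with COL3A1 gave r = 0.928, rho = 0.783 and r = 0.829 without the 2 dogs, and COL1A2 with SPARC gave 0.883, 0.764 and 0.781. SPARC with COL4A1 gave r = 0.75, rho = 0.533 and r = 0.746 without the 2 dogs, and SPARC with FN1 gave 0.815, 0.671 and 0.682. Of the 36 pairs without TIMP3, which was never at the minimum, 29 had an adjusted permutation p under 0.05 by r, and 23 did after leaving out the 2 farthest dogs. These values include levels below the minimum, and with those set to 4, a choice made after the data were seen, 25 of the 36 passed.

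The Pearson correlation of COL1A1 with the proteoglycans rested on 2 dogs. COL1A1 with LUM gave r = 0.72 but rho = 0.324, and r fell to 0.146 without DLBCL replicate 11 and MZL replicate 2 (permutation, adjusted p = 0.00067 with all dogs and 0.44 without them). COL1A1 with DCN gave r = 0.7, rho = 0.356 and r = 0.0679 without the 2 dogs (permutation, adjusted p = 0.0012 and 0.71). By rank, COL3A1 with DCN and LUM gave rho = 0.524 and 0.477 (permutation, adjusted p = 0.0044 and 0.0093) and COL1A2 with LUM gave rho = 0.386 (permutation, adjusted p = 0.04), while r of these 3 pairs without the 2 dogs was 0.2, 0.241 and 0.197. DCN with LUM gave r = 0.953, rho = 0.626 and still r = 0.787 without the 2 dogs, with DLBCL replicate 3 then the highest. ACTA2 was not correlated with COL1A1 by r (0.188; permutation, adjusted p = 0.34) but was by rho (0.486; permutation, adjusted p = 0.0086) and by r without the 2 dogs (0.382; permutation, adjusted p = 0.049). With levels below the minimum set to 4, COL1A1 with ACTA2 gave only rho = 0.186 (permutation, adjusted p = 0.31). On that scale r was 0.101 without the 2 dogs, so the rank correlation rested on levels below the minimum. ACTA2 with COL1A2 gave rho = 0.603 (permutation, adjusted p = 0.0011), but 0.336 with levels below the minimum set to 4 (permutation, adjusted p = 0.051). ACTA2 with FN1 gave r = 0.468 and rho = 0.422, and r = 0.667 without the 2 dogs. On deviations from the subtype means 29 of the 36 pairs without TIMP3 passed.

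**Figure D4:**
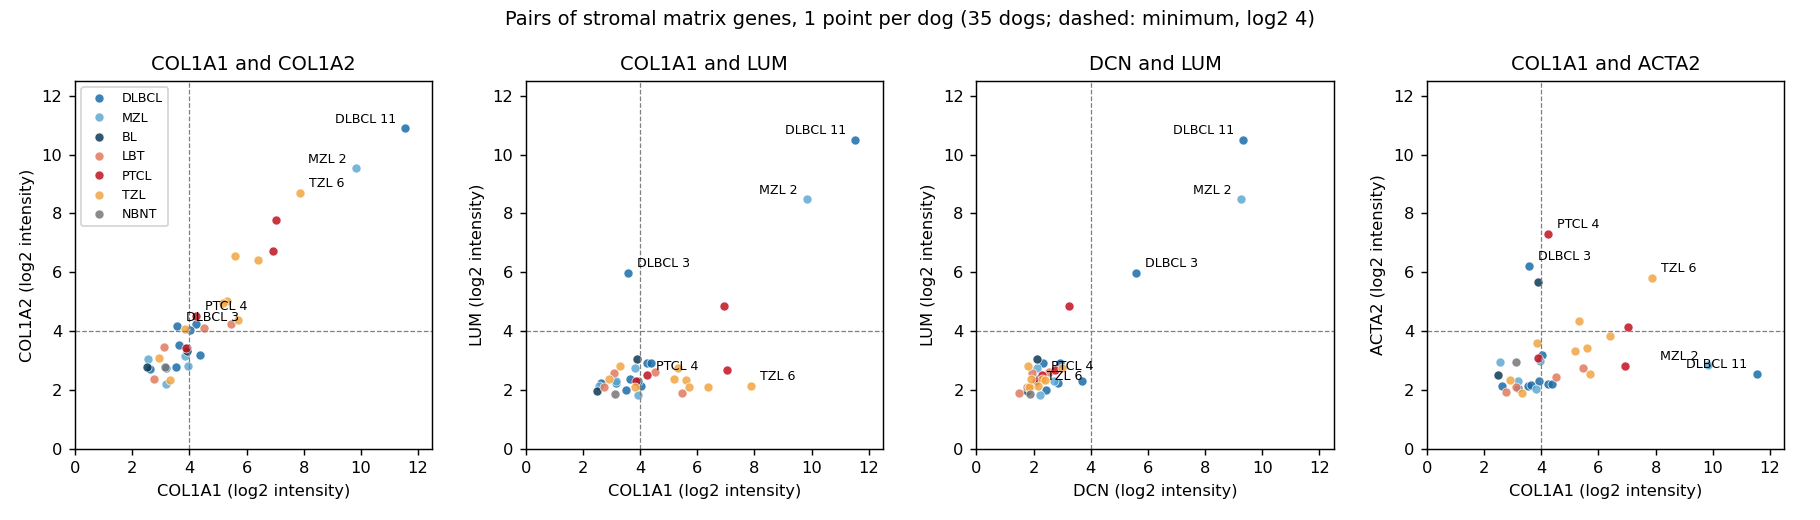
Log2 intensities of 4 pairs of genes, 1 point per dog coloured by subtype, with the minimum of 4 dashed on both axes and 5 single tumours named. COL1A1 and COL1A2 lie along 1 line, COL1A1 and LUM part except in DLBCL replicate 11 and MZL replicate 2, and ACTA2 is low in those 2 dogs.

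Outside the 10 genes, those most alike to the mean of COL1A1, COL1A2 and COL3A1 among the 7492 other genes tested were SERPINF1, a secreted anti-angiogenic serpin (r = 0.857 over 35 dogs, rho = 0.598), LAMA4, a vascular laminin (0.79, 0.73), TFPI2, a matrix protease inhibitor (0.769, 0.606), CAV1 of caveolae (0.742, 0.487) and the complement protease C1S (0.7, 0.752). HTRA1 (0.692, 0.79), THBS1 (0.661, 0.707), CCN1 (0.645, 0.69), FHL1 (0.611, 0.528) and SERPING1 (0.61, 0.717) followed. Without DLBCL replicate 11 and MZL replicate 2, r was 0.837 for LAMA4, 0.774 for HTRA1, 0.76 for CCN1, 0.722 for TFPI2, 0.718 for C1S and 0.714 for SERPING1, but 0.608 for SERPINF1, 0.578 for THBS1, 0.455 for FHL1 and 0.401 for CAV1. Of these 7492 genes only SERPINF1 had r above 0.8 over all dogs, and SPARC, on the same scale, had 0.875. Genes at the minimum in fewer than 4 of the 34 dogs were not ranked, among them COL5A2, MFAP5, EFEMP1 and P4HA2. The ranking therefore cannot show how many genes follow the collagens in DLBCL replicate 11 and MZL replicate 2. C1S and SERPING1, its inhibitor, reached the minimum in 17 dogs each.

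The probe sets of a gene did not see the same dogs. On the other 2 COL1A1 probe sets only DLBCL replicate 11 (8.87 and 8.96) and MZL replicate 2 (6.29 and 7.43) reached the minimum, while TZL replicate 6 read 2.52 and 3.59. The second COL1A2 probe set reached it in 5 dogs and the second COL3A1 probe set in 4, including PTCL replicates 1 and 3 in both. The second SPARC probe set did so in 5 dogs, with PTCL replicate 1 at 5.11 and TZL replicate 6 at 4.41. For FN1 the second probe set reached the minimum only in DLBCL replicate 11 and MZL replicate 2, and PTCL replicate 4 read 3.82 on it, so the PTCL level of FN1 was read by 1 of 4 probe sets. In B minus T, COL1A2 was 0.28 at its second probe set (limma, adjusted p = 0.718) and COL1A1 was 0.13 as the mean of its probe sets (limma, adjusted p = 0.868), of opposite sign to the values above. DCN and ACTA2 have 1 probe set each.

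**Figure D5:**
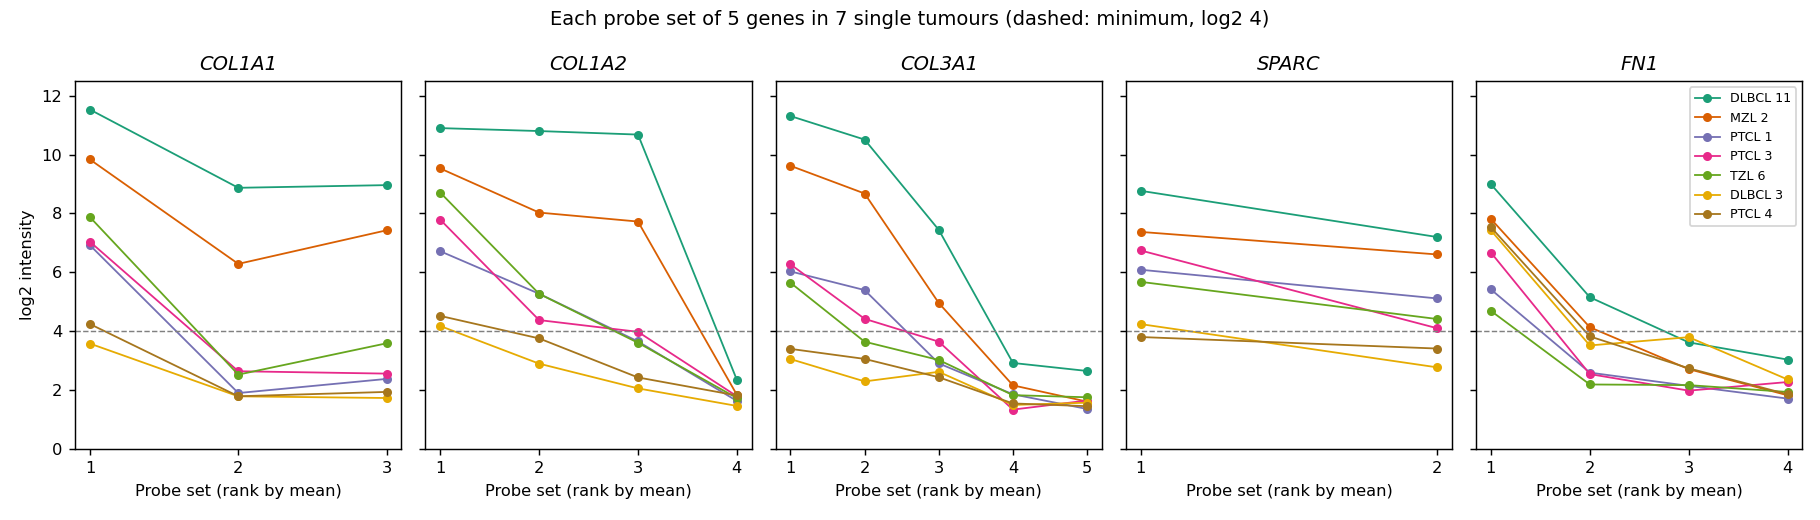
Log2 intensity (y axis) of every probe set of COL1A1, COL1A2, COL3A1, SPARC and FN1 (x axis, ranked by mean; levels are to be compared within a probe set) in 7 single tumours joined by lines, with the minimum of 4 dashed. DLBCL replicate 11 and MZL replicate 2 stay above 4 on 3 probe sets each of COL1A1, COL1A2 and COL3A1, on the last of which the T dogs lie below it.

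Genes around the 10 in matrix biology were counted from lists. None of 9 other collagens on the array passed the filter, though COL5A1 read 7.54 in LBT replicate 3 and 6.83 in DLBCL replicate 11. Over the 6 subtypes 1 of 2 tested basement membrane genes was called, 5 of 6 proteoglycan, matricellular and elastic fibre genes, 5 of 7 collagen-processing genes, both tested proteases and inhibitors (TIMP1 and MMP9), 6 of 9 matrix receptors and 6 of 9 genes of TGF-beta signalling, where 56.8% of all genes were. Between PTCL and TZL the osteopontin gene SPP1 was on average at least 13.7-fold higher in PTCL (limma, adjusted p = 0.00222). It reached the minimum in 3 of 4 PTCL and 0 of 9 TZL dogs. The gelatinase MMP9 was on average higher in PTCL by 2.77 (limma, adjusted p = 0.0172), or 5.64-fold where readings under log2 4 count as 4. MMP9 reached the minimum in 3 of 4 PTCL and 2 of 9 TZL dogs. PTCL replicate 1 had neither gene at the minimum, with SPP1 at 3.44 and MMP9 at 2.43. THBS2 was also called higher (limma, adjusted p = 0.00383), at the minimum in 2 of 4 PTCL and 0 of 9 TZL dogs. PCOLCE, which enhances procollagen cleavage, was 1.67 lower in PTCL, and the stromal chemokines CCL19 and CCL21 were 3.32 and 3.64 lower (limma, adjusted p = 0.00222, 0.00328 and 0.00349).

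Between B and T 6 of 9 tested matrix receptors were called, where 46.5% of all genes were, and all 6 were lower in B. Among them were the fibronectin receptor chain ITGA5, lower by 4.72, and CD44, lower by 1.90 (limma, adjusted p = 1.06e-14 and 0.000115). ITGA5 reached the minimum in 1 of 17 B dogs and was 13.3-fold lower where readings under log2 4 count as 4. TGFBI, a TGF-beta-induced matrix protein, was at least 7.27-fold lower in B, with 0 of 17 B dogs at the minimum, and TIMP1 was lower by 2.48 on the log2 scale (limma, adjusted p = 1.02e-10 and 0.00045). FBN1, the fibrillin of microfibrils, was 3.54 higher in B (limma, adjusted p = 1.28e-06), or 7.2-fold where readings under log2 4 count as 4. It was at or above the minimum in 15 of 17 B dogs and 5 of 17 T dogs. FN1 itself, the ligand of ITGA5, was called in neither direction in this comparison. ITGA5, CD44, TGFBI, TIMP1 and FBN1 can also be made by lymphocytes or macrophages, and which cells made them was not tested.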

How the data were processed

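Primary canine lymphomas were profiled on 36 arrays of 43035 probe sets. Per the submitters' processing notes, the authors summarised and normalized the arrays with GCRMA (version not given in the sources used here), and each deposited value is a linear intensity for 1 probe set on 1 array. GCRMA estimates background from probe sequence and shapes the low values most, so levels below log2 4 carry little order, though tests and correlations use them. Values were floored at 1 and converted to log2. Both arrays of 1 repeated DLBCL case (r = 0.994) were averaged. The platform annotation gave 29254 probe sets with exactly 1 symbol, and per gene the probe set with the highest mean was used. The depth of an array is not a count, so the number of dogs sets the precision.

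Genes at log2 4 or above in at least 4 of 34 dogs were tested with limma 3.58.1 (R 4.3.3; lmFit, eBayes, Benjamini-Hochberg over 7500 genes, threshold 0.05, two-sided), with 6 subtype means in 1 fit and B against T in a fit of 2 means. Correlations used 100000 permutations (Python 3.11.15, numpy 2.4.6, scipy 1.17.1). The steps were tested on simulated data. The genes, lists and tests were chosen with earlier results of these data known. Named were all 10 genes, the 10 most alike genes, up to 3 called genes a list and comparison, the 3 dogs with the highest mean, and cases said to be chosen later. Alternatives covered filters, scaling, variance models, probe sets, repeated arrays, covariates, subsets of dogs, the arrays that stand apart and leaving out each dog. The NBNT dog is in no group test. No genome or sequence was used here.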

Additional observations from a re-analysis of the deposited data

Results flagged for a closer look

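Within subtypes of 4 to 10 dogs, 50 sets of values of a stromal gene were checked for a dog far from the rest by Dixon's ratio, and 19 held one, where chance gives about 1 in 20 for a single set. The sets hold the same dogs and correlated genes, and most of the 19 are DLBCL replicate 11 or MZL replicate 2. They are therefore not independent, and the 19 cannot be weighed against that rate. Of the 19 values, 17 reached the minimum of log2 4. Values are log2 intensities with the nearest other dog of the subtype in brackets.

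DLBCL replicate 11 stood apart in COL1A1 at 11.53 (4.38), COL1A2 at 10.9 (4.25), COL3A1 at 11.31 (4.59), SPARC at 8.77 (4.24), DCN at 9.34 (5.59) and LUM at 10.5 (5.98). MZL replicate 2 stood apart in COL1A1 at 9.83 (3.94), COL1A2 at 9.53 (3.15), COL3A1 at 9.62 (3.42), SPARC at 7.37 (2.09), DCN at 9.25 (2.70), LUM at 8.48 (2.73), FN1 at 7.81 (3.48) and COL4A1 at 4.58 (2.62). In both dogs ACTA2 and TIMP3 were within their subtype.

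DLBCL replicate 3 stood apart in ACTA2 at 6.22 (3.20), PTCL replicate 1 in LUM at 4.84 (2.68) and LBT replicate 3 in COL3A1 at 4.45 (2.96). LBT replicate 2 was the lowest of its subtype in SPARC at 2.86 (4.00), and PTCL replicate 2 was the highest in TIMP3 at 3.44 (2.81), both below the minimum.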

How the results depend on the processing

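Counts of called stromal genes (0 over the 6 subtypes, 1 for PTCL against TZL and 0 elsewhere as reported) changed as follows. Over the 6 subtypes the count was 1 with values below log2 4 set to 4 (COL4A1, limma, adjusted p = 0.0272), 1 without the PTCL dog of intermediate grade, and 4 without both dogs of the highest levels, and it ran from 0 to 1 when each dog was left out (FN1 without DLBCL replicate 11 or MZL replicate 2, ACTA2 without DLBCL replicate 3, COL4A1 without PTCL replicate 2 or 4). For PTCL against TZL it was 0 with no filter, the mean of probe sets, the second-brightest probe sets, covariates for age, sex and breed, dogs limited to Golden Retrievers, or the arrays that stand apart left out, 2 without both dogs, and 0 to 2 when each dog was left out. With array weights, values set to 4 or without the intermediate-grade dog it stayed at 1 but was COL4A1 in place of FN1. Between B and T it was 3 without both dogs and 0 to 1 when each dog was left out, and for MZL against TZL 1 without both dogs. The counts for DLBCL against MZL, LBT against TZL, LBT against PTCL and the grade steps were 0 in all settings run. The FN1 difference between PTCL and TZL ranged from 1.91 to 3.82. The 1.91 comes from Golden Retrievers alone, with 1 PTCL dog, and the lowest was otherwise 2.0. With 2 or more dogs in both groups, its adjusted p (limma) ran from 0.0022 to 0.157. The call ended in 6 of 16 such settings and with the loss of any of 3 dogs. PTCL replicate 4, the dog of intermediate grade, counts in both. The mean of probe sets and the second-brightest probe sets gave no FN1 test and are not among the 16. Of 56 differences of single genes 38 changed sign in some setting, none of them where the difference was called. Genes called over the whole array went from 0 to 378 for DLBCL against MZL and from 51 to 0 to 96 for LBT against PTCL (11 to 173 when each dog was left out), from 1025 to as few as 547 for PTCL against TZL and from 147 to 45 to 281 for the grade steps. The count of correlated pairs stayed between 24 and 31 of 45, and was 25 of 36 without TIMP3 and with values below log2 4 set to 4, a choice made after the data were seen. The cause of these changes was not tested. No paired analysis was possible because replicate numbers only name the dogs.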
